A study of Homo sapiens with 9 samples.

Results

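Genes for 10 transcription factors that keep cells mesenchymal or drive epithelial-mesenchymal transition (EMT) were followed by RNA sequencing in parts of migrating human mesenchymal stem cells. They were SNAI1, SNAI2, TWIST1, TWIST2, ZEB1, ZEB2, PRRX1, SOX9, RUNX1 and RUNX2, chosen by symbol from the deposited TPM data. They are 10 of 62709 genes with values, and all 10 were among the 19426 that passed the expression filter (enough counts in the libraries of at least 1 group). The cells were hTERT-MSC, an adipose mesenchymal stem cell line immortalised with telomerase, so that all libraries come from 1 line.

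The 3 groups had 3 libraries each. Pseudopodia were the processes that had grown through pores of 3 µm and were scraped off the lower face of the insert. Cell body was what remained on the upper face and was scraped off afterwards. Whole cell was RNA that had not been split into fractions, and how those cells were collected is not described separately in the labels. All 3 groups carry the PDGF-BB label (50 ng/mL for 1 h, a growth factor that attracts mesenchymal cells), and an untreated group is not analysed here. Separate cultures are not named for the replicates, and p-values reflect only the spread among the 9 libraries, part of which may be technical.

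SNAI1 and SNAI2 (Snail and Slug) are zinc-finger repressors that bind E-box sequences in promoters of epithelial genes such as CDH1, and ZEB1 and ZEB2 bind the same kind of site. TWIST1 and TWIST2 are basic helix-loop-helix factors that pair with E proteins. PRRX1 is a homeobox factor of limb and connective tissue mesenchyme, SOX9 is the master factor of cartilage, RUNX2 that of bone, and RUNX1 is a close relative of RUNX2 best known from blood formation. The proteins act in the nucleus, whereas the RNA measured here can lie anywhere in the cell, and it is the share of each mRNA in a fraction that is compared.

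Normalised read counts are given as CPM (counts scaled to a common library size, set by library total and TMM factor), which compare 1 gene between libraries. Fold changes, standard errors (SE) and adjusted p-values are from edgeR's quasi-likelihood test over all genes, with calls at an adjusted p under 0.05. Library totals ran from 55469030 to 83894938 counts, and depth was similar across groups. The spread between libraries of a group, as a biological coefficient of variation over all genes, reached 32% in pseudopodia but 17.6% in cell body and only 5.08% in whole cell. Since all libraries share 1 estimate of spread, a p-value may be too low in either pseudopodia comparison, and too high for the other one. Deviations of single pseudopodia libraries from their group mean followed the GC content of genes. The correlation across 18675 genes was -0.13, -0.558 and 0.567 for replicates 1, 2 and 3. It was -0.0516 to 0.0689 in the other libraries. Log2 fold changes were correlated with GC content as well, over the same genes. The value was 0.193 for pseudopodia over cell body, 0.306 for pseudopodia over whole cell, and 0.259 where cell body was compared to whole cell. All 10 markers of mesenchymal stem cells were detected, with a summed level of 19240 to 23895 CPM in pseudopodia, 30704 to 36639 CPM in cell body and 30450.0 to 31534 CPM in whole cell. Most of that sum was COL1A1, which averaged 17405, 24371 and 24384 CPM in those groups. Of genes that define other cell types, EPCAM and ESRP1 (epithelium) reached at most 0.0646 and 0.0292 CPM, PTPRC (blood) 0.408 CPM and FABP4 (fat) 0 CPM, but PECAM1 and CDH5 (endothelium) reached 11.3 and 15.1 CPM. Endothelial markers summed to 64.5 to 80.8 CPM in pseudopodia, 78.1 to 108 CPM in cell body and 76.4 to 78.5 CPM in whole cell, and adipocyte markers to at most 31.1, 36.3 and 11.0 CPM in those groups. Haematopoietic markers, mostly CD34, summed to 65.2 to 81.0, 73.6 to 84.0 and 67.2 to 69.8 CPM. Summed epithelial markers, nearly all KRT8 and KRT18, ran from 258 to 371 CPM in pseudopodia, 258 to 296 CPM in cell body and 149 to 164 CPM in whole cell. Nuclear-retained lncRNAs summed to 208 to 216 CPM in pseudopodia, 345 to 444 CPM in cell body and 863 to 894 CPM in whole cell. The part of any of these in the results was not tested. In such bulk fractions, fewer cells of a type and less RNA per cell cannot be told apart.

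All 10 genes are protein coding in GENCODE 29 (GRCh38). SNAI1 lies at chr20:49982999-49988886 (plus strand), SNAI2 at chr8:48917604-48921740 (minus), TWIST1 at chr7:19020991-19117672 (minus) and TWIST2 at chr2:238848032-238910543 (plus). ZEB1 lies at chr10:31318495-31529814 (plus), ZEB2 at chr2:144364364-144524583 (minus) and PRRX1 at chr1:170662728-170739419 (plus). SOX9 lies at chr17:72121020-72126420 (plus), RUNX1 at chr21:34787801-36004667 (minus) and RUNX2 at chr6:45328157-45664349 (plus), the last overlapped by SUPT3H on the other strand, which averaged 4.15 CPM in pseudopodia, 5.57 CPM in cell body and 5.33 CPM in whole cell. The strand setting of the counting is not given, so reads of such partners cannot be told apart.

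The comparison of pseudopodia with cell body asks which mRNAs differ between the protruding part and the soma. ZEB1, ZEB2 and TWIST2 were higher in pseudopodia, SOX9, RUNX2 and SNAI1 were lower, and the other 4 did not pass the test. Of all genes tested, 38.5% passed in that comparison, 18.6% higher and 19.9% lower. Without pseudopodia replicate 3, 5 members were lower in place of 3. Median log2 fold change was -0.48 over the 10 members and -0.05 over all genes.

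**Figure D1:**
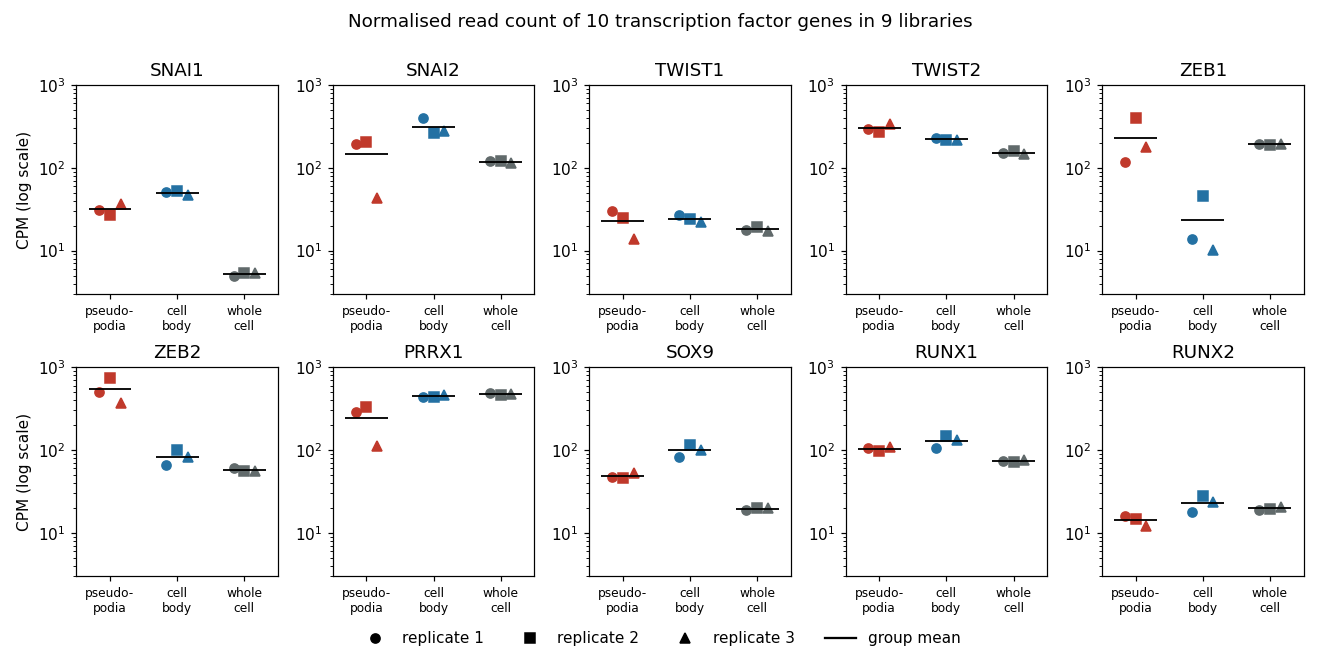
Normalised read count (CPM, log axis) of the 10 transcription factor genes in the 3 pseudopodia, 3 cell body and 3 whole cell libraries, with a line at each group mean. ZEB1 and ZEB2 lie far above their cell body values in every pseudopodia library, while SNAI1 and SOX9 are highest in cell body and lowest in whole cell.

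ZEB1 and ZEB2 stood apart from the other members in the size of their excess in pseudopodia. ZEB2 had 499, 749 and 373 CPM in pseudopodia, against 66.0, 101 and 82.2 CPM in cell body. Even the lowest pseudopodia library lay above every cell body library. The log2 fold change was 2.70 (SE 0.251, adjusted p = 1.73e-05), a 6.50-fold excess, which ranked ZEB2 number 265 of 19426 genes. ZEB1 had 116, 398 and 178 CPM in pseudopodia, against 13.9, 46.1 and 10.1 CPM in cell body. Its groups did not overlap either, although replicate 2 was the highest library of both. The log2 fold change of ZEB1 was 3.30 (SE 0.633, adjusted p = 0.00293), rank 135, with a wide error. Leaving out replicate 2 of pseudopodia gave 2.65, and leaving out replicate 2 of cell body gave 4.26, and it passed the test in each fit that left out 1 library.

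Against whole cell the ZEB genes parted. ZEB2 had 60.6, 55.7 and 56.2 CPM in whole cell, so that pseudopodia were 9.39-fold higher (log2 fold change 3.23, SE 0.257, adjusted p = 3.49e-06). Cell body and whole cell ZEB2 did not overlap, but their difference of 0.53 on the log2 scale did not pass (adjusted p = 0.101). It passed when only the 6 libraries compared were fitted (0.55, adjusted p = 0.00606). ZEB1 had 193, 189.9 and 194 CPM in whole cell, inside the range of the pseudopodia libraries, and its log2 fold change there was 0.26 (SE 0.578, adjusted p = 0.713). Cell body ZEB1 fell by 3.04 on the log2 scale relative to whole cell (SE 0.626, adjusted p = 0.00521), or by 3.99 without cell body replicate 2.

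Both ZEB mRNAs are AT-rich, with a GC content of 38.5% for ZEB1 and 39.1% for ZEB2, and both were highest in pseudopodia replicate 2, the library whose deviations fell with GC. With a correction for GC content and length, the log2 fold changes of pseudopodia against cell body were 3.51 for ZEB1 and 2.75 for ZEB2, both past the test. ZEB2 with that correction also passed in cell body against whole cell, at 1.07. ZEB1-AS1, which overlaps ZEB1 on the opposite strand, had 3.11 CPM in pseudopodia, 2.90 CPM in cell body and 4.11 CPM in whole cell on average. ZEB2 shared 3.93% of its 50-base stretches with ZEB2-AS1 and 0.892% with the pseudogene ZEB2P1, and no other member shared any with another gene.

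E-boxes of the form CACCTG, to which Snail and ZEB factors bind, stand before 2 annotated start sites of ZEB1 itself. RefSeq (GRCh38.p14) lists 7 windows of 250 bases before a start of ZEB1, all on the plus strand of chromosome 10. CACCTG, searched on both strands, is in 17.5% of all 35116 such windows, and 2 of the 7 ZEB1 windows held it. The 3 matches are shown 5′ to 3′ on the gene's strand with the motif in capitals, which reads CAGGTG where the match is on the opposite strand. The first lies 57 bases before the start at chr10:31318348-31318377, and the others lie 242 and 85 bases before another start, at chr10:31318966-31318995 and chr10:31319119-31319148. The single window of ZEB2 held none.
ZEB1 window 1: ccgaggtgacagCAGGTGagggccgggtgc
ZEB1 window 3, distal: ccccaccaCACCTGaggaaaacttttccct
ZEB1 window 3, proximal: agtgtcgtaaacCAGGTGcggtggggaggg

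TWIST2 was the most abundant member per length in every group and was somewhat higher in pseudopodia. TWIST1 did not pass in any comparison in the main edgeR fit of all 9 libraries. With limma-voom on the same libraries TWIST1 passed in pseudopodia against cell body (0.31), pseudopodia against whole cell (0.69) and cell body against whole cell (0.38). TWIST2 had 293, 268 and 340.2 CPM in pseudopodia, 232, 216 and 217 CPM in cell body, and 151, 158 and 148 CPM in whole cell. These 3 groups did not overlap and ran in the order pseudopodia, cell body, whole cell. Pseudopodia against cell body gave 0.44 on the log2 scale (SE 0.120, adjusted p = 0.0133), and against whole cell 0.98 (SE 0.121, adjusted p = 4.24e-05). Cell body against whole cell was 0.54 (SE 0.120, adjusted p = 0.00514). The first of these was lost without cell body replicate 2 (adjusted p = 0.0523) or replicate 3 (0.0548), and on log2(TPM + 1) it was 0.15 (adjusted p = 0.186). TWIST1 had 29.9, 25.1 and 13.7 CPM in pseudopodia, 26.9, 23.9 and 22.2 CPM in cell body, and 17.8, 19.2 and 17.4 CPM in whole cell. Pseudopodia replicate 3 was the lowest of all 9 libraries. Its log2 fold change was -0.09 for pseudopodia against cell body (SE 0.234, adjusted p = 0.795) and 0.33 for pseudopodia against whole cell (SE 0.235, adjusted p = 0.239). Cell body against whole cell gave 0.42 (SE 0.235, adjusted p = 0.179), and 0.45 with a pass when only those 6 libraries were fitted (SE 0.105, adjusted p = 0.00653). Without pseudopodia replicate 3 the value against whole cell was 0.61 and passed (adjusted p = 0.000925), and that against cell body was 0.18 (0.263).

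SNAI1 and SNAI2 were both most abundant in cell body. SNAI1 had 31.3, 26.7 and 37.0 CPM in pseudopodia, 50.7, 53.1 and 46.9 CPM in cell body, and only 4.89, 5.35 and 5.36 CPM in whole cell. No groups overlapped, and both fractions lay far above unfractionated RNA. Pseudopodia SNAI1 fell by 0.67 on the log2 scale relative to cell body (SE 0.142, adjusted p = 0.00335) and was 6.08-fold higher than whole cell (log2 fold change 2.61, SE 0.151, adjusted p = 2.65e-07). Cell body was 9.65-fold higher than whole cell (log2 fold change 3.27, SE 0.155, adjusted p = 2.48e-07), rank 115 of all genes. SNAI1 passed in every fit that left out 1 library, in all 3 comparisons.

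SNAI2 was less settled than SNAI1. It had 195, 204 and 43.2 CPM in pseudopodia, 403, 264 and 275 CPM in cell body, and 121, 122 and 114 CPM in whole cell. Pseudopodia replicate 3 was the lowest library of all and stood on the other side of whole cell from its 2 companions. Relative to cell body the log2 fold change of pseudopodia was -1.09 (SE 0.469, adjusted p = 0.0983), and without replicate 3 it was -0.65 with a smaller error (SE 0.164) and passed (adjusted p = 0.00873). Pseudopodia against whole cell gave 0.31 (adjusted p = 0.585), and 0.76 without replicate 3 (adjusted p = 0.00200). Cell body was 2.64-fold higher than whole cell (log2 fold change 1.40, SE 0.473, adjusted p = 0.0428). That call was lost in each of the 6 fits without 1 cell body or whole cell library (1.19 to 1.52, adjusted p = 0.0648 to 0.117), even though all 3 cell body libraries exceeded all 3 whole cell libraries. It held when only the 6 libraries compared were fitted (1.43, SE 0.173, adjusted p = 0.000239).

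In mean CPM, PRRX1 was the only member whose whole cell level was above both fractions. It had 291, 328 and 113 CPM in pseudopodia, 431, 443 and 457 CPM in cell body, and 482, 466 and 474 CPM in whole cell. All pseudopodia libraries were below all others, replicate 3 by the most. Pseudopodia against whole cell was -0.96 on the log2 scale (SE 0.318, adjusted p = 0.0260), 0.514 times the whole cell level. The call was lost without whole cell replicate 1 (-0.92, adjusted p = 0.0652), 2 (-0.94, 0.0602) or 3 (-0.96, 0.0605). It was also lost with the GC and length correction (-0.45, adjusted p = 0.0816). Pseudopodia against cell body was -0.86 (SE 0.317, adjusted p = 0.0585). It passed without pseudopodia replicate 3 (-0.52, adjusted p = 0.000837) and without replicate 2 (-1.14, adjusted p = 0.0188). Cell body and whole cell PRRX1 differed by -0.10 on the log2 scale (adjusted p = 0.831).

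SOX9 gave the same order as SNAI1. It had 47.3, 45.4 and 52.1 CPM in pseudopodia, 82.7, 116 and 100.5 CPM in cell body, and 19.0, 20.2 and 19.7 CPM in whole cell. The groups did not overlap. Pseudopodia SOX9 was 0.485 times the cell body level (log2 fold change -1.04, SE 0.140, adjusted p = 0.000149) and 2.46 times the whole cell level (1.30, SE 0.141, adjusted p = 1.77e-05). Cell body was 5.07-fold higher than whole cell (log2 fold change 2.34, SE 0.146, adjusted p = 1.39e-06). Each of these calls held in every fit that left out 1 library. The chondrogenic list, which holds genes that SOX9 is known to switch on, had 9 of 11 genes past the filter. Relative to cell body 3 of these were higher in pseudopodia and 5 lower, against 18.6% and 19.9% of all genes. HAPLN1 (link protein of cartilage matrix, -2.65), ACAN (aggrecan, -1.87) and MATN3 (matrilin, -1.74) were the lowest. COL11A2 (1.03) and COL9A2 (0.92), both cartilage collagens, were higher. SOX5 (1.16) was the third higher gene, at no more than 0.910 CPM in any library. Its call was lost without pseudopodia replicate 1 or 2 or cell body replicate 1 or 3. The list's median was -1.35 against -0.05 over all genes.

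RUNX1 and RUNX2 were both highest in cell body, by small margins. RUNX1 had 106, 97.1 and 108 CPM in pseudopodia, 106, 147 and 130.3 CPM in cell body, and 73.8, 72.6 and 75.6 CPM in whole cell. Pseudopodia overlapped cell body, and whole cell was below both. Pseudopodia against cell body gave -0.30 on the log2 scale (SE 0.133, adjusted p = 0.10). Pseudopodia were 1.40-fold higher than whole cell (0.49, SE 0.134, adjusted p = 0.00837) and cell body 1.72-fold higher (0.79, SE 0.134, adjusted p = 0.00121). Without cell body replicate 1 the difference between the fractions was -0.39 and passed (adjusted p = 0.0298). Pseudopodia against whole cell was 0.02 on log2(TPM + 1) (adjusted p = 0.879) and 0.24 when only library totals were used for scaling (adjusted p = 0.0636). RUNX2 was the scarcest member in pseudopodia, at 15.99, 14.6 and 11.9 CPM, against 17.8, 27.8 and 23.5 CPM in cell body and 18.9, 19.5 and 20.6 CPM in whole cell. Every pseudopodia library was below every other one. Pseudopodia RUNX2 fell by 0.70 on the log2 scale relative to cell body (SE 0.178, adjusted p = 0.00958) and by 0.47 relative to whole cell (SE 0.178, adjusted p = 0.0383). Without cell body replicate 2 the first was -0.54 (adjusted p = 0.0505). The second passed in 1 of the 6 fits that left out 1 library of those groups (-0.56 to -0.35, adjusted p up to 0.111). Cell body against whole cell was 0.23 (adjusted p = 0.339).

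RUNX factors bind TGTGGT, and RUNX2 is known from rodent cells to act on its own gene through such sites. In RefSeq (GRCh38.p14), the first of 2 RUNX2 windows of 250 bases held the motif at 2 places, both on the opposite strand, where the gene's strand reads ACCACA. It also held 1 match to TGANTCA, the AP-1 site. TGTGGT on either strand is in 11.0% of all 35116 windows and TGANTCA in 6.57%, and the window of RUNX1 held neither. Windows 3 and 5 of ZEB1 held TGTGGT as well, on the opposite strand. In window 3 it overlaps the distal CACCTG shown above. SNAI1, SNAI2, TWIST1 and SOX9 had no window to search. The RUNX2 matches are on chromosome 6, plus strand, at 191, 87 and 243 bases before the start (chr6:45328127-45328156, chr6:45328231-45328260 and chr6:45328080-45328109), shown 5′ to 3′ with the motif in capitals. A match is a run of letters, and no binding was measured.
RUNX2 distal RUNX motif: aggaaaggccttACCACAagccttttgtga
RUNX2 proximal RUNX motif: gtgaggtcacaaACCACAtgattctgcctc
RUNX2 AP-1 motif: atcctcaTGAGTCAcaaaaattaaaaagct

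**Figure D2:**
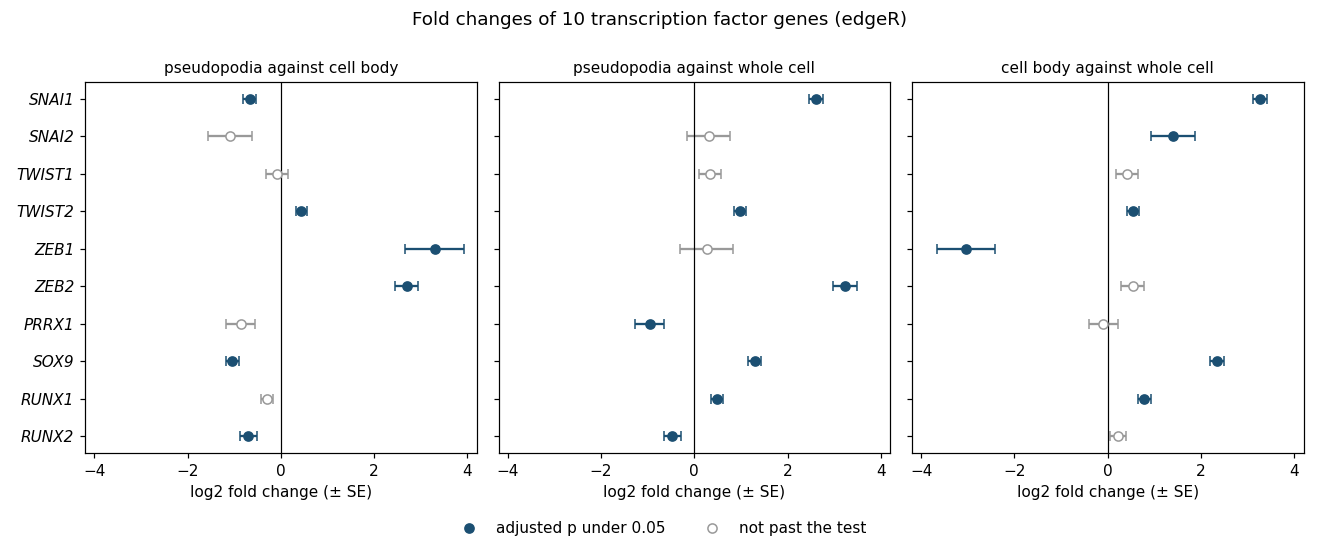
Log2 fold change (edgeR, bars ± 1 SE) of the 10 genes in each comparison, filled where the adjusted p was under 0.05. Pseudopodia against cell body ranges from -1.09 for SNAI2 to 3.30 for ZEB1, and the SE is widest for ZEB1 and SNAI2.

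Set against whole cell, members were more often higher than lower in both fractions. In pseudopodia 5 of 10 passed as higher (ZEB2, SNAI1, SOX9, TWIST2 and RUNX1) and 2 lower (PRRX1 and RUNX2), with a median log2 fold change of 0.41 against -0.12 over all genes. Of all genes 61.0% passed there, 27.9% higher and 33.1% lower. In cell body 5 of 10 were higher (SNAI1, SOX9, SNAI2, RUNX1 and TWIST2) and 1 lower (ZEB1), with a median of 0.54 against -0.06 over all genes, where 38.6% passed, 18.1% higher and 20.5% lower. Without 1 whole cell library, no matter which, 0 members were lower in pseudopodia, and without pseudopodia replicate 2 or 3 it was 1. Both comparisons share the whole cell libraries, so a gene that is low there is high in both. The scaling bears on the all-gene split. With library totals alone, 4201 genes were higher and 7806 lower in pseudopodia against whole cell, and 2715 higher and 4829 lower in cell body against whole cell, in place of 5412 and 6430, and of 3521 and 3980. On log2(TPM + 1) the split was 2310 higher and 5907 lower for pseudopodia against cell body (in place of 3605 and 3870), 3227 and 9687 for pseudopodia against whole cell, and 2643 and 5898 where cell body was set against whole cell. The members' median for pseudopodia against whole cell was 0.17 with library totals alone and -0.09 on log2(TPM + 1). Library totals alone moved the all-gene medians to -0.155, -0.357 and -0.196 in the order of the comparisons above.

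**Figure D3:**
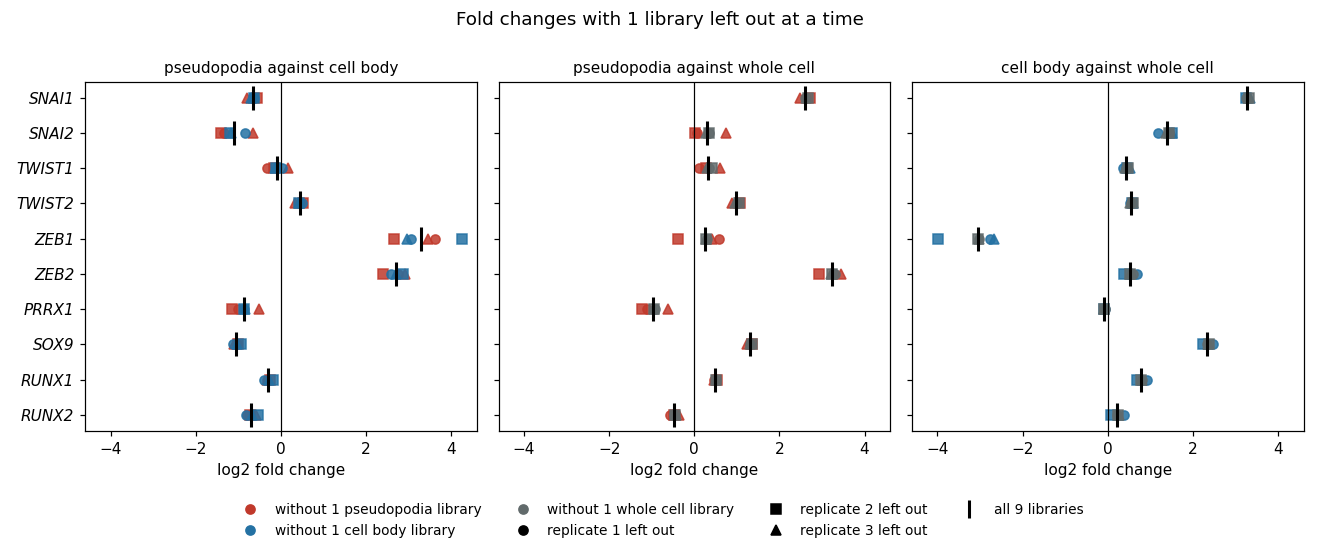
Log2 fold change of each gene with 1 library left out at a time, coloured by the group of the library left out and shaped by its replicate number, with a black line at the value from all 9 libraries. The spread is widest for ZEB1, from 2.65 to 4.26 in pseudopodia against cell body, while SNAI1 stays between 3.24 and 3.35 in cell body against whole cell.

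Levels per length, from the deposited TPM, order the members within a group. In pseudopodia the means were 544 TPM for TWIST2, 155 for SNAI2, 102 for PRRX1, 91.6 for ZEB1, 70.8 for ZEB2, 62.7 for SNAI1, 41.6 for SOX9, 39.2 for TWIST1, 22.6 for RUNX1 and 5.90 for RUNX2. TWIST2 and RUNX2 were separate from their neighbours, SNAI1 did not overlap SOX9, and the other neighbours overlapped. In cell body TWIST2 (490.4 TPM), SNAI2 (396) and PRRX1 (223) were followed by SNAI1 (122), SOX9 (105), TWIST1 (50.4), RUNX1 (33.8), ZEB2 (13.1), RUNX2 (11.6) and ZEB1 (11.1). Overlaps between neighbours there were TWIST2 with SNAI2, SNAI1 with SOX9, and the last 3 with each other in turn. In whole cell the order was TWIST2 (381 TPM), PRRX1 (269), SNAI2 (169), ZEB1 (104), TWIST1 (42.5), SOX9 (23.3), RUNX1 (22.2), SNAI1 (14.2), RUNX2 (11.2) and ZEB2 (10.3), and the only overlap was between RUNX2 and ZEB2. ZEB1 therefore ranked 4 of 10 among pseudopodia and whole cell means and last in cell body, while SNAI1 had rank 6 in pseudopodia, against 4 in cell body and 8 in whole cell. Together the 10 genes made up 0.156% ± 0.0473 of the pseudopodia counts, 0.141% ± 0.00865 of those of cell body and 0.123% ± 0.00161 of those of whole cell (SD, n = 3 each), differences smaller than the SD of pseudopodia. Of TPM they took 0.113%, 0.146% and 0.105%.

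Ratios within a family were compared as well. The comparison was added after the values had been seen, and its exact two-sided permutation test over 3 against 3 libraries cannot go below p = 0.1. ZEB2 was 1.42, 0.623 and 0.692 times ZEB1 in TPM in pseudopodia, 1.57, 0.726 and 2.69 times in cell body, and 0.104, 0.0970 and 0.0959 times in whole cell. The ranges of the fractions overlapped (exact p = 0.2), and ZEB1 was in excess in every whole cell library (exact p = 0.1 against either fraction). SNAI2 was 3.24, 3.98 and 0.607 times SNAI1 in pseudopodia, 4.13, 2.58 and 3.05 times in cell body, and 12.9, 11.8 and 11.1 times in whole cell. Whole cell was again apart from both fractions (exact p = 0.1 each), which overlapped (exact p = 0.8), and pseudopodia replicate 3 was the only library with more SNAI1 than SNAI2 per length. RUNX1 exceeded RUNX2 by 3.50, 3.49 and 4.74 times in pseudopodia, 3.13, 2.77 and 2.92 times in cell body, and 2.05, 1.95 and 1.93 times in whole cell. TWIST2 exceeded TWIST1 by 10.5, 11.4 and 26.6 times in pseudopodia, 9.20, 9.68 and 10.4 times in cell body, and 9.03, 8.77 and 9.09 times in whole cell. The RUNX and TWIST ratios did not overlap between any groups (exact p = 0.1 each). Adjusted over the 12 comparisons of ratios, the lowest p was 0.12.

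**Figure D4:**
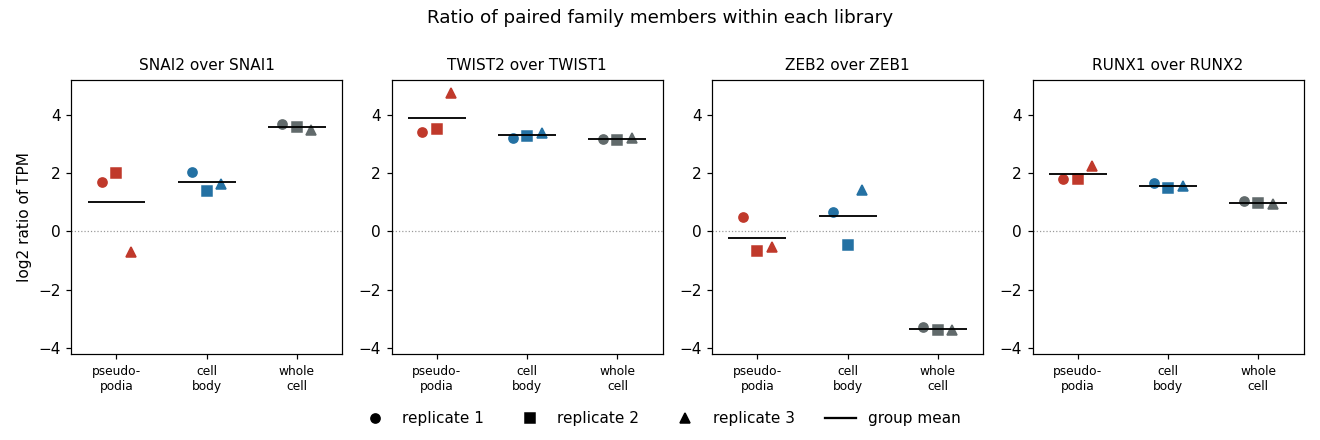
Log2 ratio of TPM between the members of a family in each library, with a line at the group mean. Whole cell stands apart for SNAI2 over SNAI1 and for ZEB2 over ZEB1, and pseudopodia replicate 3 is the outlying point for SNAI2 over SNAI1 and for TWIST2 over TWIST1.

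For 8 of the 10 members, the pseudopodia replicate with the highest level ran with base composition. SNAI2 (41.4% GC), PRRX1 (41.0%), ZEB1 and ZEB2 were all highest in replicate 2, by 4.73, 2.90, 3.43 and 2.01 times their lowest pseudopodia library. SNAI1 (58.2% GC), TWIST2 (57.0%), SOX9 (51.0%) and RUNX1 (47.1%) were highest in replicate 3, by 1.39, 1.27, 1.15 and 1.11 times. TWIST1, at 57.2% GC, and RUNX2, at 46.2%, were in neither set: both were highest in replicate 1 and lowest in replicate 3. The part of base composition in the calls was not tested beyond the correction, under which SNAI1, SOX9, RUNX2, TWIST2, ZEB1 and ZEB2 still passed in pseudopodia against cell body, and PRRX1 (-0.64) and RUNX1 (-0.55) passed too.

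Partners of these factors were also measured. Twist proteins pair with the E proteins TCF3, TCF4 and TCF12, and ID proteins take E proteins away from them. TCF3 had 182, 157 and 197 CPM in pseudopodia, 97.8, 111 and 104 CPM in cell body, and 106, 109 and 107 CPM in whole cell. It was higher in pseudopodia than in both (log2 fold changes 0.78 and 0.73). TCF4 was lower in pseudopodia than in cell body (-0.64, adjusted p = 0.0339), a call lost without cell body replicate 1 (-0.68, adjusted p = 0.0507), 2 (-0.55, 0.110) or 3 (-0.63, 0.0728), and lower than in whole cell (-1.29). TCF12 was -0.85 against cell body (adjusted p = 0.0758) and fell by 1.62 relative to whole cell. ID3 had 1274, 989.9 and 1354 CPM in pseudopodia, 1743, 1455 and 1384 CPM in cell body, and only 144, 156 and 152 CPM in whole cell, and both fractions passed as higher (3.00 and 3.34). ID1 was likewise lowest in whole cell (pseudopodia 0.91 and cell body 1.63 on the log2 scale against it) and was lower in pseudopodia than in cell body (-0.72). CBFB, the shared partner of RUNX proteins, was higher than whole cell in pseudopodia (0.65) and in cell body (0.49), and 0.16 between the fractions (adjusted p = 0.319). Of the 13 partners and inhibitors tested, 2 were higher and 2 lower in pseudopodia against cell body, shares of the list below those of all genes (18.6% and 19.9%). The lower count was 4 without pseudopodia replicate 3 and 1 without any single cell body library.

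Of 25 other mesenchymal and EMT factors tested, 4 passed as higher and 4 as lower between pseudopodia and cell body, no more than the shares of all genes (18.6% and 19.9%), with 2 lower without cell body replicate 2 or 3. TBX15 (1.38) and SOX4 (1.36) were the highest, and HMGA2 (-0.997) was among the lower ones. PRRX2, the close relative of PRRX1, had 75.6, 65.9 and 89.7 CPM in pseudopodia, 47.5, 45.5 and 45.4 CPM in cell body, and 20.4, 21.2 and 21.6 CPM in whole cell. Its order was thus the reverse of PRRX1 (log2 fold change 0.74 for pseudopodia against cell body, adjusted p = 0.00109). SNAI3 did not pass in any comparison (-0.49, -1.25 and -0.76), and RUNX3 did not pass the expression filter. MSX1, FOXC2 and SIX2, homeobox and forkhead factors of mesenchyme, were lowest in whole cell. Against it they were higher in pseudopodia by 3.50, 2.85 and 2.19 on the log2 scale and in cell body by 3.24, 3.10 and 2.04. More of the list went the other way, with 8 of 25 higher and 11 lower than whole cell in each fraction. All-gene shares were 27.9% and 33.1% in pseudopodia and 18.1% and 20.5% in cell body. MEOX2 (-1.93 and -2.46), TBX18 (-1.91 and -1.40) and OSR1 (-1.73 and -1.89) were lower in pseudopodia and in cell body than in whole cell.

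Genes that act on these factors, or that they regulate, were examined as lists, to be read against the 18.6% of all genes that were higher and the 19.9% that were lower in pseudopodia than in cell body, and the all-gene median of -0.05. Corepressors and chromatin partners, which Snail and ZEB proteins recruit, were higher in pseudopodia than in cell body for 7 of 13 and lower for 0, with a median of 0.37, among them SIN3A (1.19), a scaffold of histone deacetylase complexes, and TLE3 (0.87), a Groucho corepressor. Their higher count was 4 without pseudopodia replicate 1 or cell body replicate 3. On log2(TPM + 1) it was 2, with 1 lower and a median of 0.08, and without pseudopodia replicate 2 or 3 the lower count was 2 or 1. Enzymes listed under turnover of Snail and Twist proteins, which need not break them down, were higher for 5 of 15 and lower for 0. SMURF2 (1.72) and SMURF1 (1.08), both ubiquitin ligases, and the kinase PRKD1 (1.504) were the highest, and 9 were higher without pseudopodia replicate 3. Mesenchymal effector genes, to which many targets of the members belong, were lower for 16 of 21 and higher for 0, with a median of -1.02. POSTN (periostin, -3.14, and -4.16 without pseudopodia replicate 2), LOX (lysyl oxidase, -2.57) and FAP (fibroblast activation protein, -2.42) were the lowest. Without any 1 library, 13 to 16 of the 21 were lower and 0 higher. The mesenchymal stem cell markers, which share VIM and COL1A1 with that list, were lower for 9 of 10, and their part in the result was not tested. Among epithelial genes that EMT factors repress, both counts were below the all-gene shares, with 1 of 15 higher (DSP, desmoplakin, 1.73, and 2.33 without cell body replicate 2) and 2 lower (CLDN1, -1.60, and CDH3, -1.21). Without pseudopodia replicate 2, 4 were higher and 4 lower, and 2 were higher without replicate 3. The osteogenic list under RUNX2 had 1 of 7 higher and 3 lower, SPP1 (osteopontin, -1.64) by the most, though SPP1 reached at most 0.564 CPM. None was higher without pseudopodia replicate 1 or cell body replicate 2 or 3, and 1 was lower without cell body replicate 2.

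**Figure D5:**
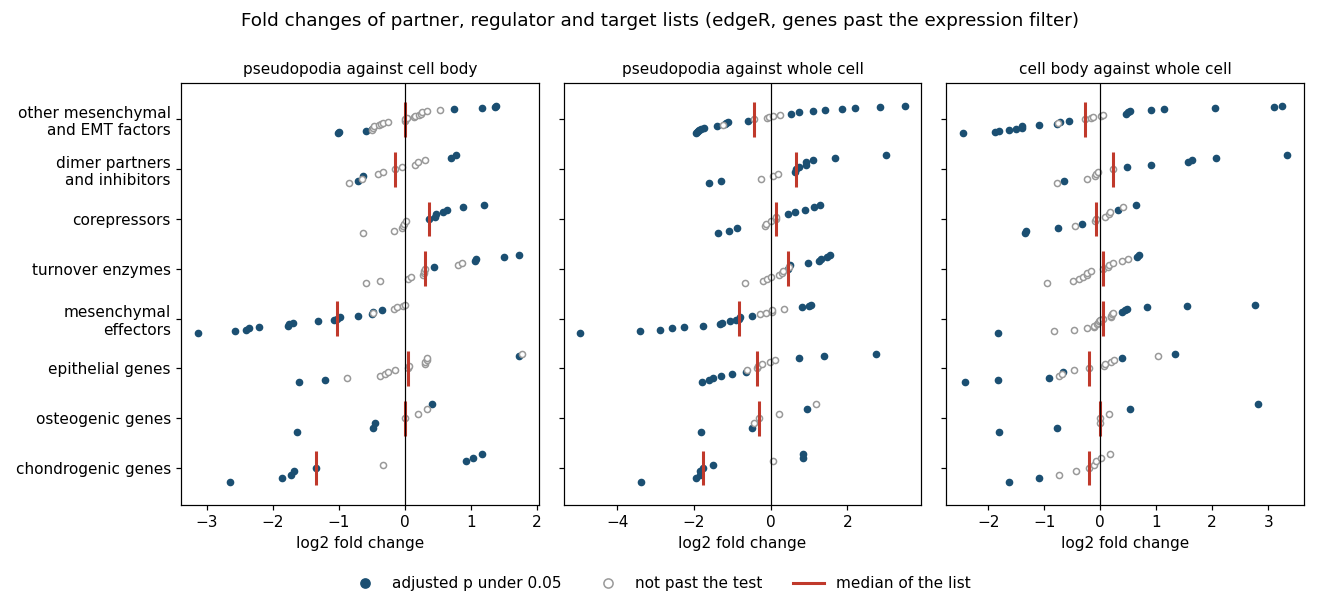
Log2 fold changes of the genes past the expression filter in 8 lists of partners, regulators and targets, 1 point per gene, filled where the adjusted p was under 0.05, with a red line at the list's median. Mesenchymal effectors lie to the left in pseudopodia against cell body (median -1.02), and corepressors lie to the right (0.37).

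Against whole cell, 27.9% of all genes were higher and 33.1% lower in pseudopodia, and 18.1% higher and 20.5% lower in cell body, and the counts of the same lists are to be read against these shares. Mesenchymal effectors were lower in pseudopodia for 13 of 21 and higher for 3, and in cell body higher for 6 and lower for 1 (3 higher without whole cell replicate 1 or 3). The lower one, POSTN, lost its call without cell body replicate 2 or 3 or any whole cell library. ITGA5, the fibronectin receptor subunit, was higher in pseudopodia (1.06) and in cell body (1.55). Partners and inhibitors were higher for 8 of 13 and lower for 2 in pseudopodia, and higher for 6 and lower for 1 in cell body. That lower gene was TCF4, a call lost without cell body replicate 1 or 3 or any whole cell library. Corepressors were higher for 5 and lower for 3 in pseudopodia (lower for 1 without pseudopodia replicate 1 or 3 or any whole cell library), and higher for 2 and lower for 4 in cell body, where the lower count was 2 in each fit without 1 library. The enzymes of the turnover list were higher for 7 of 15 in pseudopodia (11 without pseudopodia replicate 3) and 2 in cell body, and lower for 0 in both. Of the 25 other mesenchymal factors, 8 were higher and 11 lower in pseudopodia, and 8 higher and 11 lower in cell body (7 lower without whole cell replicate 1). Epithelial genes were higher for 3 of 15 and lower for 6 in pseudopodia, and higher for 2 and lower for 4 in cell body. Chondrogenic genes were higher for 2 of 9 and lower for 6 in pseudopodia, and higher for 0 and lower for 2 in cell body. Osteogenic genes were higher for 1 of 7 and lower for 2 in pseudopodia, and higher for 2 and lower for 2 in cell body. In cell body, leaving out 1 library took the lower count to 2 of the epithelial, 1 of the chondrogenic and 0 of the osteogenic genes at the least. Of 2 antisense lncRNAs of the members past the filter, RUNX1-AS1 was lower in pseudopodia (-2.88) and in cell body (-1.67) than in whole cell, and neither passed between the fractions.

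Profiles closest to each member over the 9 libraries were found by the root mean square distance of centred log2 CPM. The closest match of all was RBM3, a cold-inducible RNA-binding protein, to TWIST2 (distance 0.0348), followed by ARPC2, a subunit of the actin-nucleating ARP2/3 complex, also to TWIST2 (0.0384). RUNX1 was nearest to CCNK (0.0659) and GOSR1 (0.0669), PRRX1 to MMUT (0.0778) and RCBTB2 (0.0872), and TWIST1 to PFDN1 (0.0821) and S100A10 (0.0891). SOX9 was nearest to RGS4 (0.0830) and ADORA2B (0.120), RUNX2 to C5orf22 (0.0896) and FLVCR1 (0.101), and SNAI1 to FOXC2 (0.179) and HMOX1 (0.184). SNAI2 was nearest to the chemokine CXCL8 (0.210) and to IDI1 (0.212), and ZEB2 to FRMD3 (0.269) and DIO2 (0.278). ZEB1 had the most distant nearest genes, LACC1 (0.427) and BAZ2B (0.459). The distance also takes in scatter between libraries of a group. That scatter was wide for ZEB1, with an SD of 148 on a mean of 231 CPM in pseudopodia and 19.8 on 23.4 CPM in cell body.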

How the data were processed

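RNA was sequenced from 9 libraries of hTERT-MSC, grouped by the labels. Per the labels, RNA was isolated with TRIzol and 1 µg of glycogen, and a low-input kit gave the libraries. The authors deposited whole-number read counts per gene (a label names featureCounts) and TPM values per library. Per the submitters' processing notes, DESeq2 and GRCh38 were used; aligner, annotation release and strand setting are not given in those sources. Deposited counts and TPM differed by 1 length per gene and 1 constant per library. The 1 line with no gene name was left out. CPM were computed from counts and TMM-scaled totals. Positions came from GENCODE 29 and promoter windows from RefSeq.

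All 9 libraries entered 1 fit in edgeR 4.0.16 (R 4.3.3; quasi-likelihood, robust, TMM, expression filter by group), and Benjamini-Hochberg adjusted p under 0.05 was called. SEs came from the test statistic. Alternatives used limma 3.58.1 and DESeq2 1.42.0. The members, gene lists and tests were chosen with earlier results of these data known. Named genes were all members, up to 3 called genes of each list in each direction, fixed partners and the 2 nearest profiles. The family ratios, the 50-base search and the replicate GC comparison were added after values had been seen. List entries matched for 203 of 205 (RUNX1-IT1 and PRRX1-AS1 did not). The planned protein comparison was not run. Some genes that the naming rule selects are not reported here.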

Additional observations from a re-analysis of the deposited data

How the results depend on the processing

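Of 570 alternative values of the 10 genes, 485 kept direction and side of the threshold, 37 kept direction but no longer passed, 32 newly passed and 16 changed sign. The cause was not tested. TWIST1 in pseudopodia against cell body changed sign with limma-voom (0.31), and leaving out 1 library gave -0.331 to 0.176, above 0 without pseudopodia replicate 3 or cell body replicate 1. In pseudopodia against whole cell it did so on log2(TPM + 1) (-0.20), log2(TPM + 0.1) (-0.20), with the GC and length correction (-0.0716) and with that and the replicate block (-0.16). SNAI2 there was -0.44 and -0.45 on the 2 TPM scales. ZEB1 there was -0.61 with limma-voom, -0.38 and -0.39 on the TPM scales, -0.0108 with the replicate block, and -0.379 to 0.590 without 1 library, below 0 without pseudopodia replicate 2. PRRX1 in cell body against whole cell was 0.19 with the GC and length correction and 0.20 with the block added. Among partners in pseudopodia against cell body, CBFB was -0.12 on both TPM scales, and SNAI3 was 0.71 with limma-voom and -1.15 to 0.0497 without 1 library, above 0 without cell body replicate 1. In cell body against whole cell: TCF3 was 0.0248 with no low-count filter and -0.0823 to 0.00785 without 1 library, above 0 without cell body replicate 1. Limma-voom called all 10 members in pseudopodia against cell body, where it called 11124 of all 19426 genes, against 7475 in the main fit. In cell body against whole cell it called 11967 genes, against 7501 in the main fit. With a filter of 5 CPM in 3 libraries, 7516 genes were called in pseudopodia against whole cell and 4667 in cell body against whole cell, of 10917 tested. In whole cell the members' share was 0.105% of TPM. Without 1 library, the members called ranged from 4 to 8, 5 to 8 and 5 to 5 in pseudopodia against cell body, pseudopodia against whole cell and cell body against whole cell, and all genes called from 6034 to 8581, 10283 to 12667 and 5049 to 6331. Over all genes, same-numbered libraries did not deviate together (r from -0.0807 to 0.0901, against -0.176 to 0.144 for different numbers). With 3 libraries per group this cannot settle whether the numbers pair libraries. A replicate block gave 6920, 11494 and 6798 calls and lost RUNX2 in pseudopodia against whole cell (adjusted p = 0.0537). With only the 6 libraries compared, 8 members passed in cell body against whole cell, TWIST1 and ZEB2 being added. Calls over all genes rose in that fit as well, to 10734 of 18842 tested, from 7501 of 19426 in the main fit.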
